A study of Homo sapiens with 4 samples.

Results

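Collagen chains, laminin chains and integrin subunits encode much of the matrix around a cell and the receptors that hold it. The rule for membership is a pattern of gene symbols and uses no measured value: 44 collagen alpha chains, 12 laminin chains and 24 integrin subunits, 80 protein-coding genes of the 58735 in each table. RNA sequencing was done on OMM2.3, an established human uveal melanoma cell line, in 4 libraries: a control, CCCP alone, DHA alone, and CCCP with DHA, called the combination here. CCCP is a protonophore that uncouples mitochondrial respiration, and the labels do not spell out DHA. All 4 groups were grown with 10% fetal bovine serum; doses, times and any treatment of the control were not given in the sources used here. Each group was 1 library of 1 cell line, so no difference below has a replicate or a test.

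Levels are FPKM (read fragments for each kilobase of exon, with the library size divided out). The length is that of all annotated exons of a gene, so levels and ratios between genes depend on the annotation. The change of such a ratio between libraries does not depend on this length. Log2 ratios were taken on log2(FPKM + 0.5). A gene was called higher or lower when that ratio reached 2-fold, among the 13678 genes that reached 1 FPKM in any library. Folds given with a range are ratios of FPKM without the added 0.5, with an exact 95% interval that covers counting error only. The libraries held between 16900411 and 18937286 reads over genes.

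Collagens are secreted as trimers of alpha chains. Fibrillar types assemble into the fibres of connective tissue, and type IV forms the network of basement membranes. Laminins are trimers of 1 alpha, 1 beta and 1 gamma chain that build the other basement membrane network. Integrins are surface receptors of 1 alpha and 1 beta subunit, and the alpha subunit largely sets whether collagen, laminin, or proteins with an RGD motif such as fibronectin are bound. In bulk RNA from a culture, a lower level in every cell and a loss of cells with a high level cannot be told apart.

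Of the 80 genes, 38 passed the 1 FPKM filter: 17 collagens, 7 laminins and 14 integrins. Of these, 32 reached 1 FPKM in all 4 libraries. The other 42 stayed below the filter, 38 of them under 0.2 FPKM throughout. Just inside it lay ITGB8, with a highest value of 1.03 FPKM, ITGA2, at 1.1, and COL27A1, at 1.21. Just outside lay COL13A1, at 0.915. Counts over the genes that passed describe those genes and not the whole families.

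All 3 families took a smaller share of reads in the combination than in the control, and the difference was largest for the collagens. Collagens held 1.02% of reads in the control, 1.02% with CCCP, 0.831% with DHA and 0.593% in the combination. For laminins the shares were 0.197%, 0.209%, 0.175% and 0.171% in the same order, and for integrins 0.702%, 0.659%, 0.667% and 0.588%. The exact 95% intervals of the control and the combination did not overlap in any of the 3 families (for collagens, 1.02 to 1.03% and 0.59 to 0.597%).

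**Figure D1:**
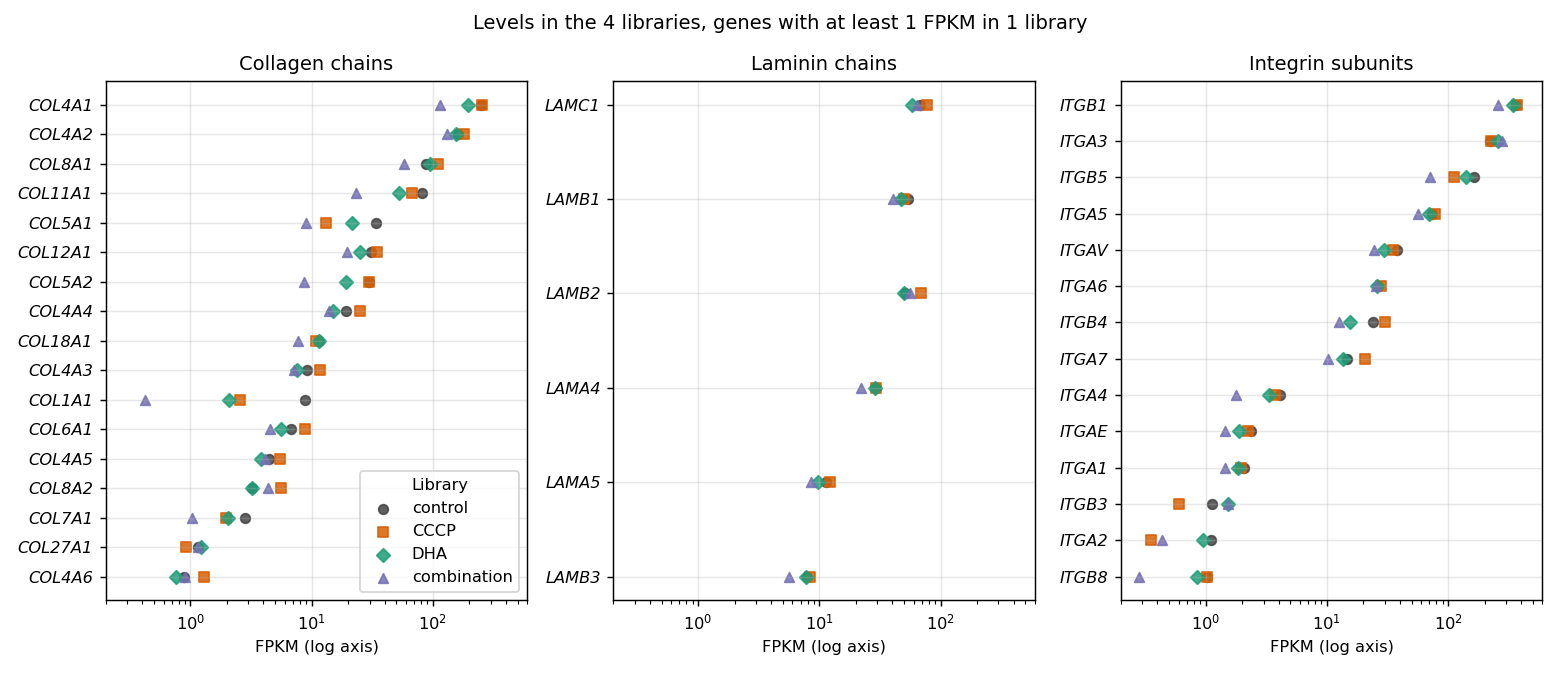
FPKM (horizontal log axis) of chains that passed the filter (rows), in panels for collagens, laminins and integrins; each symbol is 1 library, with circles for control, squares for CCCP, diamonds for DHA and triangles for the combination. COL1A1 has the widest spread, from 8.86 FPKM in the control to 0.425 in the combination, while the symbols of each laminin shown lie close together.

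Fibrillar collagens stood furthest from control. Their 11 genes summed to 155 FPKM in the control, 114 with CCCP, 97.1 with DHA and 42.9 in the combination. COL1A1, COL5A1, COL5A2, COL11A1 and COL27A1 passed the filter, and the first 4 of these were 2-fold lower in the combination. COL5A1, COL5A2 and COL11A1 encode chains of types V and XI, minor fibrillar collagens that set the diameter of fibres.

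COL1A1 (ENSG00000108821, 17:50183289-50201632 in GENCODE 29 on GRCh38), a chain of type I collagen, had 8.86 FPKM in the control, 2.54 with CCCP, 2.09 with DHA and 0.425 in the combination. These values rest on 1693, 416, 353 and 72 reads. It was lower than control by 3.49-fold (3.14 to 3.9) with CCCP, 4.25-fold (3.78 to 4.78) with DHA and 20.9-fold (16.5 to 26.8) in the combination. The control was highest and the combination lowest, and the single-compound libraries lay close to each other. Among 10896 protein-coding genes ordered from the lowest log2 ratio to control, COL1A1 stood 9th with CCCP, 1st with DHA and 2nd in the combination. The 3 ratios share the control library. COL1A2, which encodes the partner chain of type I collagen, was close to absent, with 7 reads in the control, 1 with CCCP, 1 with DHA and 0 in the combination. COL3A1 had at most 6 reads.

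COL5A1 (9:134641774-134844843) had 34 FPKM in the control, 13.2 with CCCP, 21.7 with DHA and 9 in the combination. Its 2.59-fold (2.47 to 2.71) lower level with CCCP exceeded the 1.57-fold (1.51 to 1.63) with DHA, and the combination was 3.78-fold (3.59 to 3.99) below control. COL5A2 (2:189031896-189225312), whose product assembles with that of COL5A1, had 29.9, 29.7, 19.1 and 8.57 FPKM in the same order. With CCCP it was level with control, at 1.01-fold lower (0.963 to 1.05), and in the combination it was 3.49-fold (3.26 to 3.73) lower. The ratio of COL5A1 to COL5A2 was 1.14 in the control, 0.443 with CCCP, 1.14 with DHA and 1.05 in the combination, so the CCCP library alone stood apart.

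COL11A1 (1:102876467-103108872) had 80.8 FPKM in the control, 67.4 with CCCP, 52.7 with DHA and 23.4 in the combination. Each library with a compound was below control, and the combination was 3.45-fold (3.33 to 3.58) lower. COL27A1 was the fibrillar gene with nearly the same level throughout, at 1.16, 0.92, 1.21 and 1.15 FPKM. COL11A2 was below the filter, between 0.207 and 0.329 FPKM.

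The type IV collagens, of the basement membrane network, had a higher sum than the fibrillar ones, mostly from COL4A1 and COL4A2. Their pattern differed from that of the fibrillar genes. The 6 genes summed to 445 FPKM in the control, 479 with CCCP, 374 with DHA and 273 in the combination. They lie as 3 pairs of neighbours on opposite strands that start close together: COL4A1 with COL4A2, COL4A3 with COL4A4, and COL4A5 with COL4A6. In the RefSeq annotation of GRCh38.p14, 126 bases lie between the starts of the first pair, 418 between those of the second and 379 between those of the third. The stretches before the starts are shown for the first 2 pairs because the members of the first took different levels and those of the second kept a steady ratio. The third pair, not shown, kept a steady ratio as well. Capitals mark CCAAT and GGGCGG, each searched on both strands (as ATTGG and CCGCCC on the reverse), and TATAAA was searched likewise.

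between COL4A1 and COL4A2, chr13:110307158-110307283, strand of COL4A2: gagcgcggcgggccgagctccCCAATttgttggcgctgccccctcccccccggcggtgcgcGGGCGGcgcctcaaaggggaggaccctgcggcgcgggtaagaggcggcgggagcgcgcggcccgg
COL4A3, chr2:227164374-227164623, + strand: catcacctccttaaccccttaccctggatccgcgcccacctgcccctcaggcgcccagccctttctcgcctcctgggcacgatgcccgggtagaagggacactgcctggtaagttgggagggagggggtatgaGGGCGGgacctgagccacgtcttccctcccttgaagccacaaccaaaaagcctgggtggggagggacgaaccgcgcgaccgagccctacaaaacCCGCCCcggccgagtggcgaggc
COL4A4, chr2:227164206-227164455, - strand: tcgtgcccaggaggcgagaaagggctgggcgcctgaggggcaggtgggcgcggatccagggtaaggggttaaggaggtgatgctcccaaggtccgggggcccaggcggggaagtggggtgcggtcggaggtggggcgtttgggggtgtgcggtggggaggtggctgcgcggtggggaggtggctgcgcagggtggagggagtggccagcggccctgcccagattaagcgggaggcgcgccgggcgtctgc

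The stretch between COL4A1 and COL4A2 held 1 CCAAT and 1 GGGCGG, with a GC content of 80.2%. Among 35116 RefSeq promoters, 21.1% held CCAAT and 34.6% held GGGCGG in the 126 bases before the start. The 250 bases before COL4A3 held 2 GGGCGG and the 250 before COL4A4 none of the 3 motifs, against 42.6% of promoters with GGGCGG in 250 bases. GENCODE 29 places the outer start of COL4A1 inside the first stretch, and that of COL4A2 upstream of it. It also places the outer starts of COL4A3 (227164565) and COL4A4 (227164453) inside their own stretches. By that annotation nearly all of the COL4A4 stretch lies after the start, and the second pair starts closer together. Which bases precede a start thus depends on the annotation for both pairs. A match describes the letters and shows no binding.

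COL4A1 (13:110148963-110307233) had 251 FPKM in the control, 253 with CCCP, 193 with DHA and 115 in the combination. COL4A2 (13:110305812-110513209), whose product joins 2 chains of COL4A1 in the common type IV trimer, had 160, 182, 154 and 131. In the combination COL4A1 was 2.18-fold (2.15 to 2.21) below control and COL4A2 1.22-fold (1.21 to 1.24). The ratio of COL4A1 to COL4A2 was thus 1.57 (1.55 to 1.58) in the control, 1.39 with CCCP, 1.25 with DHA and 0.88 (0.867 to 0.893) in the combination. By FPKM, COL4A2 exceeded COL4A1 in the combination only. In reads it did so with DHA as well (51209 against 48972), so the library of crossing depends on the exon lengths used. The exons of these genes share no base in GENCODE 29.

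COL4A3 and COL4A4, chains of the network found in kidney glomeruli and other specialised membranes, kept a ratio between 0.467 and 0.508 in all 4 libraries, with overlapping intervals. COL4A4 had 19.1 FPKM in the control, 24.8 with CCCP, 15.1 with DHA and 14 in the combination, and COL4A3 had 9.16, 11.6, 7.61 and 7.13. Both were highest with CCCP and lowest in the combination. COL4A5 lay between 3.83 and 5.43 FPKM and COL4A6 between 0.757 and 1.29. The ratio of COL4A5 to COL4A6 lay between 4.21 and 5.07, also with overlapping intervals. COL4A6 passed the filter through the CCCP library alone. With CCCP all 6 type IV chains had a log2 ratio above 0, from 0.01 for COL4A1 to 0.37 for COL4A4. When libraries were scaled to equal summed FPKM, COL4A1 turned to -0.1. With DHA all 6 lay below control, from -0.06 to -0.38.

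**Figure D2:**
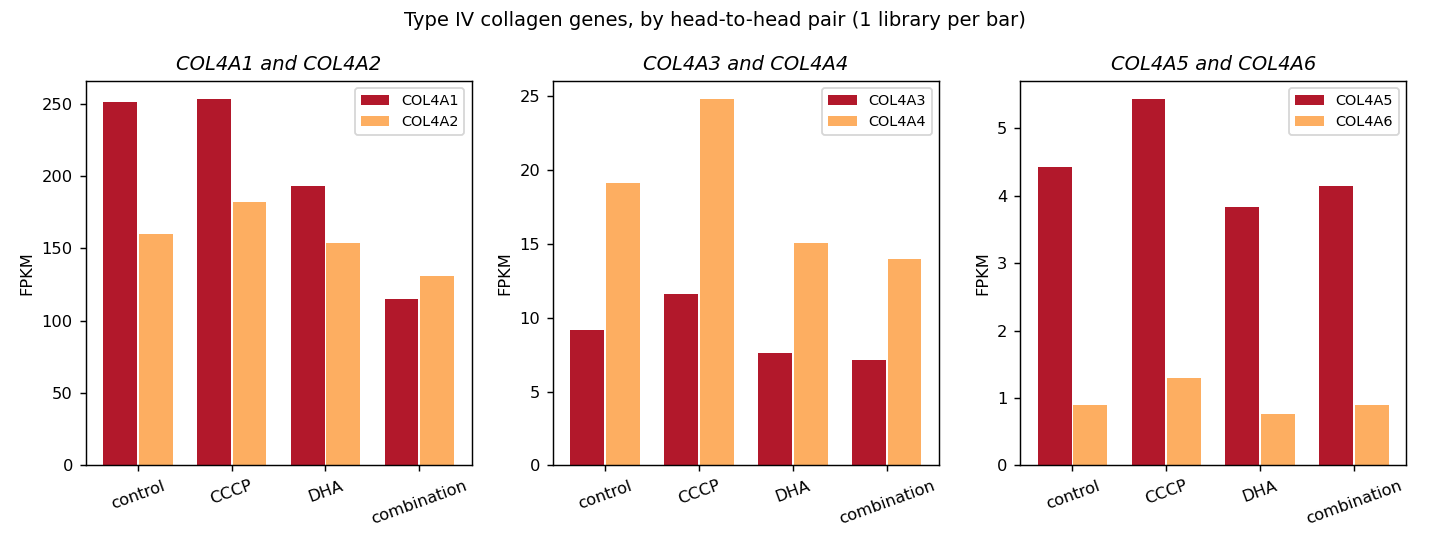
Levels (FPKM, vertical axes from 0 and scaled apart) of the type IV chains, 1 panel for each neighbouring pair; each bar is 1 library, so there are no error bars. COL4A1 stands above COL4A2 in 3 libraries and below it in the combination (115 and 131 FPKM), while COL4A4 stands above COL4A3 in all 4.

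The remaining collagens form networks, anchoring fibrils or beaded filaments, or sit on the surface of fibres. COL8A1, a chain of the short-chain network of type VIII, had 87.3 FPKM in the control, 111 with CCCP, 94.1 with DHA and 57.5 in the combination. Its partner COL8A2 had 3.21, 5.61, 3.23 and 4.4. COL8A2 was 1.75-fold (1.5 to 2.03) higher than control with CCCP and 1.37-fold (1.17 to 1.61) higher in the combination, where COL8A1 was 1.52-fold (1.48 to 1.56) lower. COL12A1, a fibril-associated collagen, had 30.7, 34.7, 25.2 and 19.6 FPKM, with the combination lowest.

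COL7A1 (3:48564073-48595267), the anchoring fibril collagen, had 2.79 FPKM in the control, 1.95 with CCCP, 2.03 with DHA and 1.03 in the combination, which was 2.72-fold (2.31 to 3.21) lower. COL18A1, the basement membrane collagen that releases endostatin, had 11.5, 10.9, 11.4 and 7.77 FPKM. It shares 16.4% of its exon bases with SLC19A1 on the other strand, a gene at no more than 2.79 FPKM, and the library kit does not mark strand. COL6A1 had between 4.53 and 8.81 FPKM, whereas its trimer partner COL6A2 had no read in any library, which allows up to 0.0333 FPKM at 3 reads, and COL6A3 had at most 27 reads. COL14A1, COL19A1, COL22A1, COL5A3 and COL9A1 also had no reads.

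By the 2-fold rule, 2 collagens were lower with CCCP (COL1A1 and COL5A1), 1 with DHA (COL1A1) and 6 in the combination (COL1A1, COL5A1, COL11A1, COL5A2, COL4A1 and COL7A1), and none was higher. With 1 added to FPKM in place of 0.5, COL7A1 had a log2 ratio of -0.9 and lost its call, which left 5. Of all genes measured, 2.32% were 2-fold lower with CCCP, 1.86% with DHA and 5.44% in the combination. Among protein-coding genes these shares were 0.569%, 0.0734% and 3.73%. The shares of all genes 2-fold higher were 3.21%, 2.0% and 4.52%, and those of protein-coding genes 0.661%, 0.358% and 2.18%. Against single-compound libraries, 4 collagens were 2-fold lower in the combination than with CCCP (COL5A2, COL1A1, COL11A1 and COL4A1), where 4.94% of all genes and 2.85% of protein-coding genes were. Another 4 calls were made against DHA (COL1A1, COL5A1, COL11A1 and COL5A2), where 3.63% of all genes and 1.96% of protein-coding genes were lower. No collagen was higher in these 2 comparisons, where 3.46% and 3.27% of all genes and 1.56% and 0.964% of protein-coding genes were. The median log2 ratio of the 17 collagens to control was 0.17 with CCCP, -0.26 with DHA and -0.54 in the combination, beside 0.00, 0.00 and 0.01 over all genes.

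**Figure D3:**
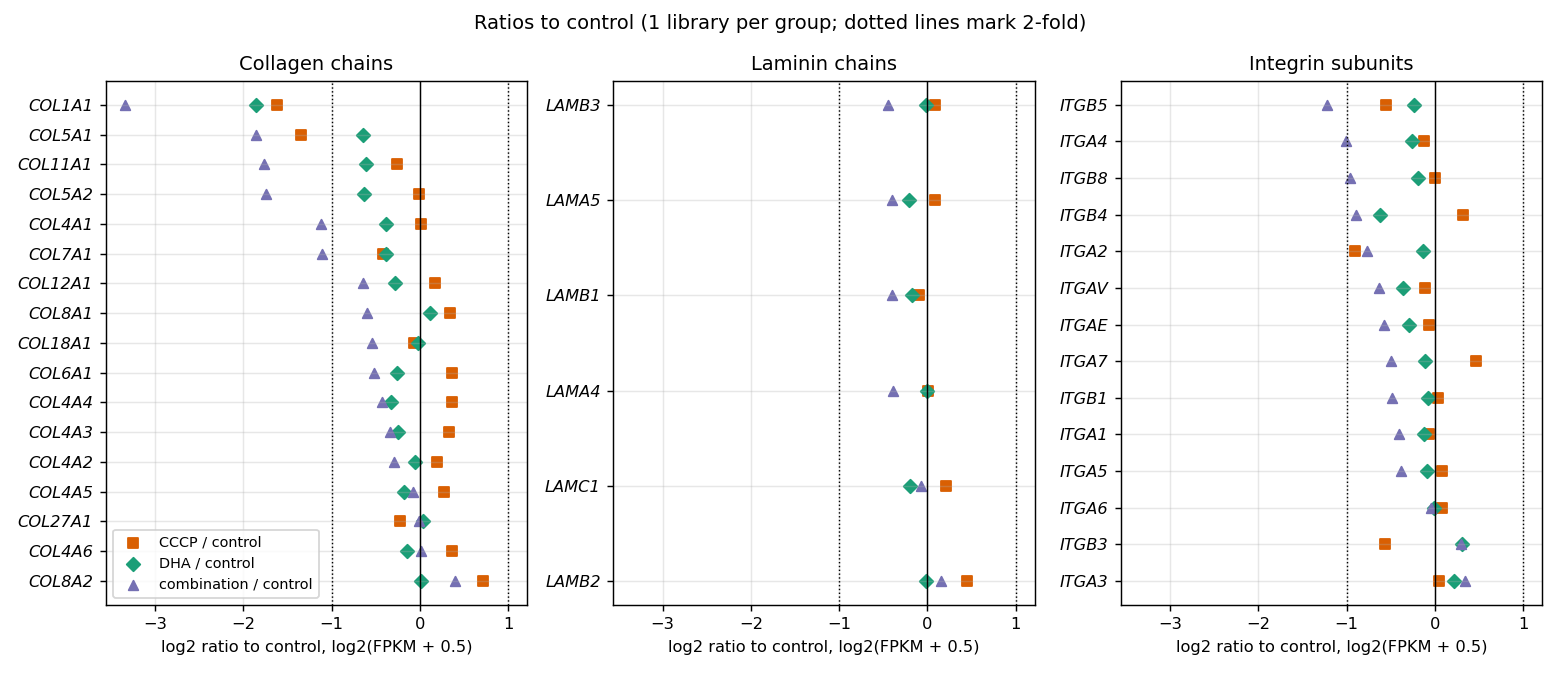
Log2 ratio to control of chains that passed the filter, on log2(FPKM + 0.5), by family, with squares for CCCP, diamonds for DHA and triangles for the combination; dotted lines mark 2-fold. The triangles of 6 collagens and 2 integrins lie beyond the lower line, and no laminin shown reaches it.

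Laminin ratios to control spanned the narrowest range of the 3 families. No laminin reached 2-fold in any of the 5 comparisons. With 7 genes, that is near the shares of all genes, 1.86 to 5.44% lower and 2.0 to 4.52% higher. The median log2 ratio of the 7 laminins to control was 0.09 with CCCP, -0.17 with DHA and -0.4 in the combination. LAMC1, the gamma chain of most laminins, had 67.1 FPKM in the control, 77.6 with CCCP, 58.5 with DHA and 63.7 in the combination. The beta chains LAMB1 and LAMB2 had similar levels in the control, 53.6 and 50.8 FPKM. LAMB1 then had 50.1, 47.5 and 40.4 with CCCP, DHA and the combination, and LAMB2 had 69.6, 50.2 and 56.4. The ratio of LAMB1 to LAMB2 was 1.05 (1.02 to 1.09) in the control, 0.946 (0.914 to 0.98) with DHA, 0.719 (0.696 to 0.742) with CCCP and 0.716 (0.691 to 0.742) in the combination. Both libraries with CCCP lay below both libraries without it.

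Among alpha chains, which carry the main receptor-binding domains, LAMA4 led with 29.1, 29.3, 29 and 22.1 FPKM, so that the combination alone was lower, by 1.32-fold (1.27 to 1.37). LAMA5 had 11.4, 12.2, 9.82 and 8.56. LAMB3, a beta chain found in epithelial basement membranes, had 7.88, 8.44, 7.75 and 5.64 FPKM. The alpha chain LAMA3 was below the filter, between 0.186 and 0.347 FPKM. LAMA1 and LAMC3 had no reads. The summed alpha chains, 40.9 FPKM in the control and 31 in the combination, were below the summed beta chains, 112 and 103, in both.

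With DHA all 7 laminins that passed had a log2 ratio below 0, from -0.01 to -0.21. The intervals of 3 of these ratios included equality. With CCCP 2 of 7 lay below 0, and 5 of 7 when libraries were scaled to equal summed FPKM. In the combination 6 of 7 lay below control, and LAMB2 was 1.11-fold (1.07 to 1.15) higher.

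Integrins had the highest summed FPKM of the 3 families, at 939 in the control, 913 with CCCP, 905 with DHA and 745 in the combination. The alpha subunits together lay between 383 and 403 FPKM. The beta subunits summed to 556, 517, 502 and 345, so the lower total in the combination came from the beta side. ITGB1, the beta subunit shared by most collagen, laminin and fibronectin receptors, had 365 FPKM in the control, 373 with CCCP, 344 with DHA and 260 in the combination, 1.4-fold (1.38 to 1.43) below control.

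ITGB5 (3:124761948-124901418), which pairs with ITGAV as a vitronectin receptor, had 165 FPKM in the control, 112 with CCCP, 140 with DHA and 70.5 in the combination. It was 1.47-fold (1.44 to 1.51) lower with CCCP, 1.18-fold (1.16 to 1.21) with DHA and 2.34-fold (2.28 to 2.4) in the combination. ITGAV had 38, 35.2, 29.6 and 24.3. ITGB4, the partner of ITGA6 in hemidesmosomes, had 24.1, 30.2, 15.5 and 12.6 FPKM, with both DHA libraries below both libraries without DHA. It was 1.55-fold (1.46 to 1.64) lower than control with DHA and 2.39-fold (2.25 to 2.54) lower in the combination than with CCCP. ITGA6 itself lay between 25.3 and 27.7 FPKM, and the ratio of ITGA6 to ITGB4 was 1.09, 0.918, 1.68 and 2.

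The laminin-binding alpha subunits ITGA3, ITGA6 and ITGA7 summed to 261 FPKM in the control, 275 with CCCP, 296 with DHA and 314 in the combination. ITGA3 (17:50055968-50090481) made up most of this, with 220, 227, 257 and 278 FPKM. It was highest in the combination, 1.26-fold (1.25 to 1.28) above control, where ITGB1 was lowest. The ratio of ITGA3 to ITGB1 was 0.604 (0.595 to 0.612) in the control, 0.609 with CCCP, 0.745 with DHA and 1.07 (1.05 to 1.09) in the combination. ITGA7 had 14.7, 20.6, 13.7 and 10.3 FPKM, highest with CCCP and lowest in the combination. ITGA6 had 25.3 FPKM in the combination, level with control within counting error at 1.04-fold lower (0.985 to 1.09). The higher sum there was thus that of ITGA3 alone.

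Subunits that bind RGD or collagen had their lowest summed level in the combination. ITGA5, the fibronectin receptor's alpha subunit, had 73.7 FPKM in the control, 77.7 with CCCP, 69.2 with DHA and 56.4 in the combination. The summed RGD-binding alpha subunits were 112, 113, 98.8 and 80.7 FPKM. Collagen-binding alpha subunits were scarce, at 3.37 FPKM or less in sum. ITGA1 had 2.08, 1.97, 1.85 and 1.45 FPKM. ITGA2 had 1.1, 0.356, 0.954 and 0.44, so both CCCP libraries were below both others. ITGA2 was lower than control by 3.1-fold (2.24 to 4.39) with CCCP and 2.51-fold (1.86 to 3.43) in the combination. The added 0.5 damped these to log2 values of -0.91 and -0.77, short of the 2-fold rule. ITGA2 passed the filter through the control alone.

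**Figure D4:**
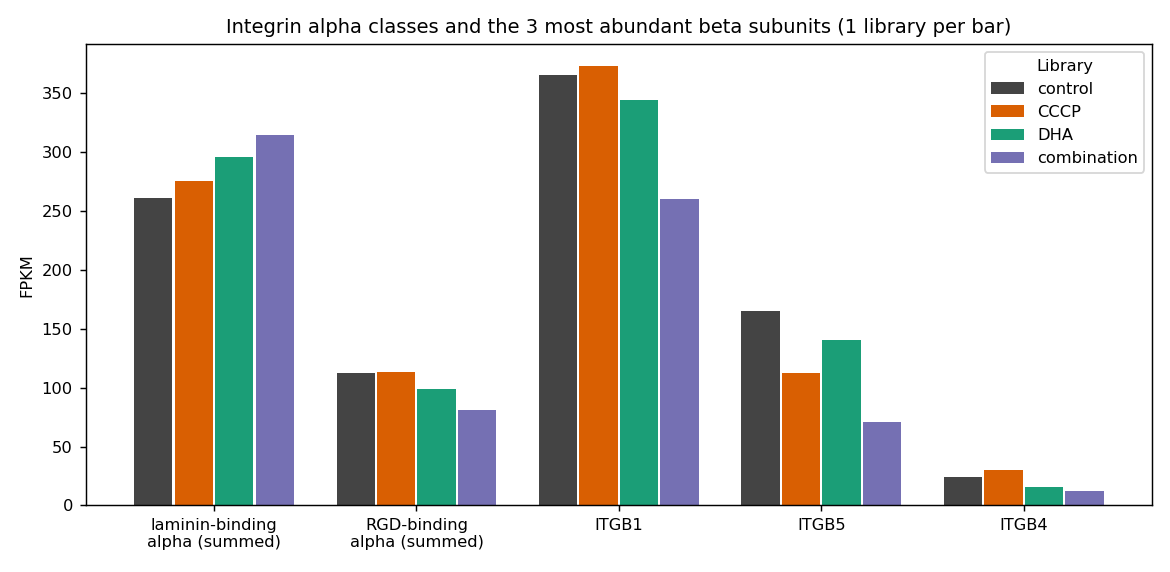
Summed FPKM of the laminin-binding and the RGD-binding alpha subunits, and FPKM of the beta subunits ITGB1, ITGB5 and ITGB4 (vertical axis from 0); each bar is 1 library, so there are no error bars. The summed laminin-binding alpha subunits are highest in the combination (314 FPKM), where ITGB1 (260) and ITGB5 (70.5) are lowest. That sum is highest there through ITGA3 alone, since ITGA7 is lowest in the combination and ITGA6 is no higher there than in the control.

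ITGA4, an alpha subunit for VCAM1 and fibronectin, had 4.1, 3.73, 3.34 and 1.78 FPKM and was 2.3-fold (1.98 to 2.68) lower than control in the combination. ITGB8 had 1.03, 1.03, 0.842 and 0.283 FPKM. Its ratio of 3.63-fold (2.81 to 4.75) was damped to a log2 value of -0.96 by the added 0.5, just short of the rule. ITGB3 had 1.13, 0.599, 1.53 and 1.52 FPKM, lowest with CCCP. It shares 51.6% of its exon bases with AC068234.1 on the same strand, a gene with no reads. How reads in shared bases were counted was not given, so the level of ITGB3 may be too low. ITGAE, an alpha subunit of lymphocytes, had between 1.44 and 2.38 FPKM and shares 6.41% of its exon bases with HASPIN on the other strand. ITGB2, the beta subunit of leukocytes, reached 0.298 FPKM, and ITGAL and ITGA8 had no reads. ITGA2B and ITGAD are outside the symbol rule and had at most 0.129 and 0 FPKM.

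By the 2-fold rule, no integrin was called with CCCP or DHA alone. ITGB5 and ITGA4 were lower in the combination than in the control, ITGB4 was lower than with CCCP, and none was called against DHA. These counts stand against the background shares given with the collagens. The count in the combination depended on the value added to FPKM: with 0.1 it was 4 (ITGA2 and ITGB8 joined), and with 1 it was 1 (ITGB5). The median log2 ratio of the 14 integrins to control was -0.03 with CCCP, -0.14 with DHA and -0.54 in the combination.

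Each compound could be read over 2 pairs of libraries that have none in common: against control, and in the presence of the other compound. For DHA, 14 of 17 collagens, 7 of 7 laminins and 11 of 14 integrins were lower in both pairs, 32 of 38 in all, beside 30.6% of all genes and 31.5% of protein-coding genes. For CCCP, 7 of 17, 2 of 7 and 8 of 14 were lower in both, 17 of 38 in all, beside 30.6% and 32.3%. A log2 ratio below 0 of any size counted as lower. Against control, the counting intervals included equality for 9 of the 38 genes with DHA and 10 with CCCP. The filter favoured the place of some genes in these counts. ITGB8 and COL4A6, counted for DHA, passed it only through libraries without DHA, and ITGA2, counted for CCCP, only through the control. With libraries scaled to equal summed FPKM, 25 and not 17 of the 38 lay below control with CCCP. None of the 6 type IV chains was lower in both CCCP pairs, and all 5 fibrillar chains were lower in both CCCP pairs, although COL5A2 and COL27A1 only slightly in 1 of them. COL1A1 was 2-fold lower in both pairs for each compound, and COL5A1 in both for CCCP. Of all genes, 0.614% were 2-fold lower in both pairs for CCCP and 0.395% for DHA, and of protein-coding genes 0.257% and 0.0275%.

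The departure from additivity is the log2 ratio of the combination to control minus the sum of the 2 single-compound ratios. It was below 0 for 14 of 17 collagens, 7 of 7 laminins and 11 of 14 integrins, with medians of -0.42, -0.28 and -0.29. Over all genes the median was 0, with 6882 of 13678 below. The lowest departures were those of COL5A2 at -1.1, COL8A1 at -1.05, COL11A1 at -0.89, ITGA7 at -0.86, ITGB8 at -0.78 and COL4A1 at -0.75. That of ITGB8 depended on the value added to FPKM, at -1.3 with 0.1 and -0.52 with 1. COL5A1, at 0.11, lay near 0. The value of COL1A1 was 0.14, and it was -0.29 with 0.1 added in place of 0.5, so its sign was not settled by these data. All departures rest on the same 4 libraries.

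**Figure D5:**
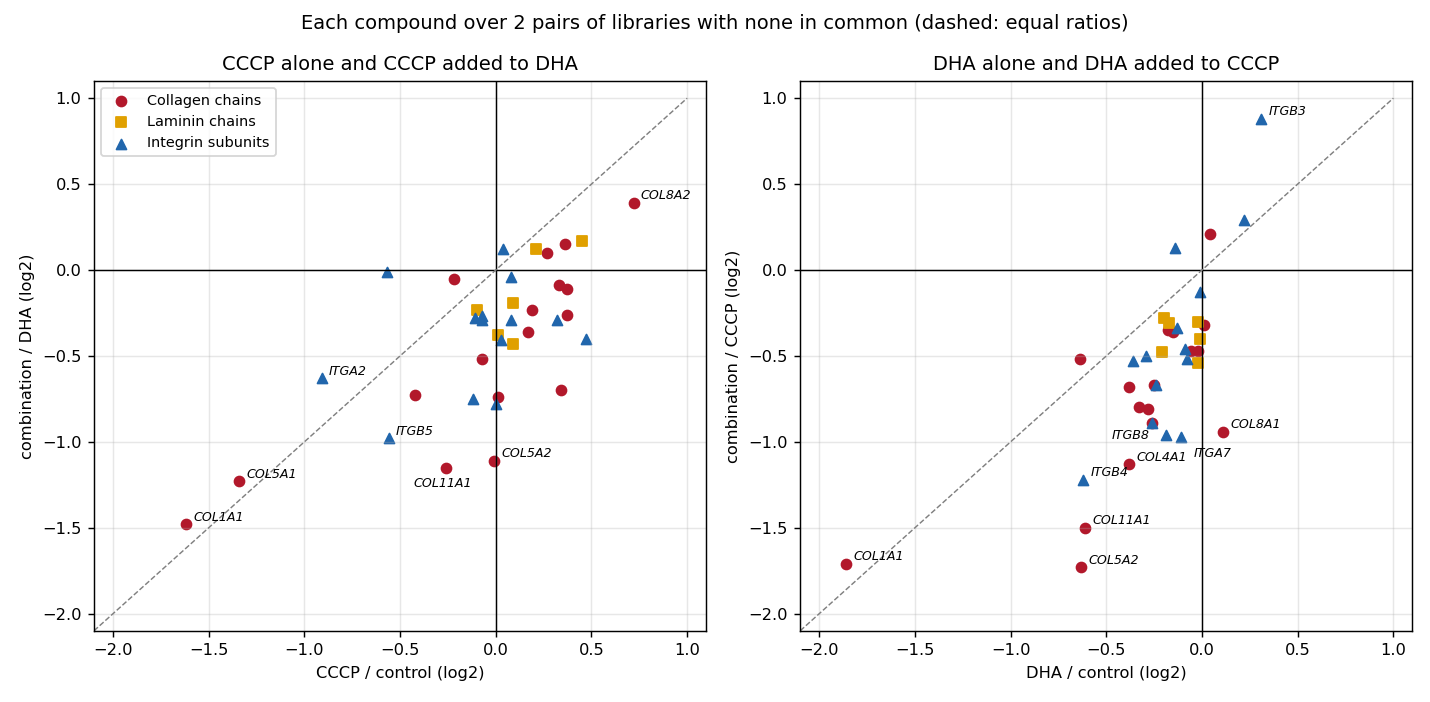
Log2 ratio of chains that passed the filter for a compound alone against control (horizontal) and for the same compound added to the other (vertical), for CCCP at left and DHA at right; the dashed line marks equal ratios. COL1A1 lies at the lower left in both panels, and most points of the DHA panel lie below 0 on both axes.

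Genes that make, hold or cut the matrix were read from lists. Of 28 measured genes of collagen processing, none was 2-fold higher and 3 were 2-fold lower in the combination, with a median log2 ratio of -0.61. For this list and the others below, the shares of all genes 2-fold lower and higher in the combination were 5.44% and 4.52%, and those of protein-coding genes 3.73% and 2.18%. P4HA1, a subunit of the prolyl hydroxylase that stabilises the triple helix, had 84.1 FPKM in the control, 50.6 with CCCP, 81.8 with DHA and 35.1 in the combination. P3H2, a prolyl 3-hydroxylase, had 4.9, 3.57, 3.22 and 1.68, and TLL1, a procollagen protease, had 1.78, 1.82, 1.27 and 0.616. PLOD1, a lysyl hydroxylase, was just inside 2-fold with a log2 ratio of -1.0.

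Of 14 measured basement membrane partners and receptors, 2 were 2-fold lower and 1 higher in the combination, with a median of -0.53, beside 5.44% and 4.52% of all genes. SPARC, which binds collagen, had 211, 201, 151 and 63.6 FPKM in control, CCCP, DHA and combination. DAG1, the dystroglycan receptor of laminins, had 55.6, 43, 44 and 27.1. DDR2, a receptor kinase for fibrillar collagen, was higher in both DHA libraries, with 10, 9.89, 16.1 and 22.1. NID1, which links laminin to type IV collagen, had 23.4, 26.9, 19.1 and 15.1.

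Of 8 other integrin ligands measured, 1 was lower and 1 higher in the combination. THBS1 (thrombospondin) had 706, 339, 513 and 145 FPKM, and CYR61, a matricellular protein, had 548, 1386, 760 and 1249, higher in both CCCP libraries. TGFBI had a log2 ratio of -0.83 and FBN1 of -0.84 in the combination. Of 32 measured genes of the adhesion machinery inside the cell, none was higher and 2 were lower, a share near the 5.44% of all genes, with a median of -0.1: VCL (vinculin), with 78.4, 60.6, 65.3 and 33.7 FPKM, and TNS3 (tensin), with 24.4, 21.7, 18.5 and 11.7. KANK2 and PTK2B had log2 ratios of -0.77 and 0.69. Of 16 measured proteases and inhibitors, FAP and MMP2 were lower and TIMP3 higher, beside 5.44% and 4.52% of all genes. FAP had 15.5, 7.86, 10.7 and 4.54 FPKM, MMP2 had 12.7, 8.77, 9.85 and 5.3, and the inhibitor TIMP3 had 28.9, 37.8, 30.8 and 65.8. MMP24 had a log2 ratio of -0.78.

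Markers of cell types were read in the same libraries. Of 17 melanocyte lineage markers 6 passed the filter, with summed levels of 81.9, 88, 74.6 and 72.5 FPKM. MITF lay between 5.01 and 8.89 FPKM, PMEL between 0.965 and 2.55, GPNMB between 23.3 and 34.9 and RAB27A between 7.76 and 10.5. These were lowest in the combination. GPR143 lay between 16.5 and 21.4 FPKM and RAB38 between 10.6 and 14.5, both lowest in the control. TYR, PAX3, OCA2, SLC45A2, EDNRB and KIT were at 0 in all libraries. Of 12 fibroblast markers 5 passed, summing to 920, 989, 935 and 688 FPKM, mostly VIM, which melanoma cells also express. Among the passing fibroblast markers, PDGFRB (8.07, 9.88, 5.72 and 4 FPKM), FAP, FBN1 and VIM were lowest in the combination. S100A4 was lowest in the control (1.05, 1.93, 1.81 and 1.41 FPKM), and LUM, THY1 and FBLN1 were at 0 throughout. Of 14 leukocyte markers 1 passed, with summed levels of at most 1.41 FPKM and 7 at 0. Of 9 endothelial markers 1 passed, with at most 6.14 FPKM in sum and CDH5 and ERG at 0. Of 11 epithelial markers 3 passed, KRT7, KRT8 and KRT18, with summed levels of 379, 301, 348 and 270 FPKM, and KRT5, KRT14 and ESRP1 were at 0. The part of other cell types in the results was not tested.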

How the data were processed

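Per the labels' protocols, a TruSeq RNA kit was used on 1 ug of total RNA for each of the 4 libraries. The authors deposited FPKM per gene, per the file headers; the aligner, counter and build were not given in the sources used here. Each of the 58735 gene identifiers matched GENCODE 29, which supplied coordinates and exon lengths. FPKM times exon length gave whole reads for 100% of values within 0.01 reads, a limit widened in proportion for the highest counts. These reads supplied depth, floors of 3 reads and exact 95% Clopper-Pearson intervals. No count model was run, since each group had 1 library.

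Ratios used log2(FPKM + 0.5) for genes that reached 1 FPKM in any library, in 5 comparisons. The computation was tested on simulated data. Every member could be named; those 2-fold from control or with a mean of at least 20 FPKM are given in full, and of each pathway list up to 4 genes with the largest combination ratio whose mean reached 1 FPKM. NID1 and some marker genes were named outside that rule, after their values were seen. Of 34 processing genes, 33 were found by name. Promoter sequences came from RefSeq (GRCh38.p14), with entries for 57 of 80 members. The members and lists were chosen with earlier results of these data known. Alternatives were a pseudocount of 0.1 or 1, dropping the filter, a mean of 5 FPKM or more, scaling to equal summed FPKM and median-of-ratios scaling. The scripts ran on Python 3.11.15, with scipy 1.17.1, numpy 2.4.6 and pandas 2.3.3, and matplotlib 3.10.9 for plots. The values of 1 laminin chain are not reported here, and it is left out of the figures; family counts, sums and medians include it.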

Additional observations from a re-analysis of the deposited data

Results flagged for a closer look

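2 chains had opposite ratios in the 2 pairs of libraries that differ by CCCP, among 76 looked at (38 genes and 2 compounds), by at least 1.25-fold each way with counting intervals that excluded equality. ITGA7 was at 1.4 times its control level with CCCP alone and at 0.751 times its DHA level when CCCP was added to DHA. COL8A1 was at 1.27 and 0.612 times in the same pairs. The difference between the pairs was not tested, since each library is alone in its group.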

How the results depend on the processing

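Apart from the values below, family counts stayed within 1.5 times, and no called value changed sign. Median-of-ratios scaling moved none. The shares over all genes moved with the setting too. The share 2-fold lower with CCCP was 2.32%, and 3.77% with a pseudocount of 0.1 and 1.3% with 1. In the combination it was 5.44%, and 7.49%, 3.77% and, without a filter, 1.61%. With DHA it was 1.86%, and 0.0888% with a mean of at least 5 FPKM. With a pseudocount of 0.1, integrins called lower numbered 1 with CCCP, 4 in the combination against control, 3 against CCCP and 1 against DHA, 1 integrin was higher in the combination than with CCCP, and the collagen median of the combination against CCCP was -0.82. With a pseudocount of 1, 1 integrin was lower in the combination than in the control. Without a filter, medians were pulled to 0 by genes near 0: collagens 0.0, -0.03, -0.05, -0.04 and -0.04 and laminins 0.0, -0.03, -0.19, -0.29 and -0.09 (CCCP, DHA and combination against control, then combination against CCCP and DHA), and integrins 0.01 with CCCP, and -0.27, -0.11 and -0.08 for the combination against control, CCCP and DHA. With a mean of at least 5 FPKM, which leaves out COL1A1, 1 collagen was lower with CCCP, 0 with DHA, and 1 integrin in the combination. Medians there were 0.06 for integrins with CCCP, -0.1 for laminins with DHA, and -0.81 and -0.52 for collagens in the combination against CCCP and DHA. With equal summed FPKM, medians with CCCP were 0.06 for collagens, -0.02 for laminins and -0.12 for integrins, and those of laminins were -0.27 with DHA and -0.32 and -0.16 in the combination against CCCP and DHA. The cause of these moves was otherwise not tested. No paired analysis was possible because each group held 1 library, and for the same reason no replicate could be left out. Near-zero ratios with CCCP depend on the scaling: ITGA3, ITGA5, ITGA6, ITGB1, LAMA4, LAMA5, LAMB3 and COL4A1 turned from above to below 0 with equal sums, as did COL8A2 and COL27A1 with DHA and COL4A6 in the combination. ITGA6 and ITGB3 turned from below to above 0 in the combination against DHA. Depth limits the genes below the filter: for those with no reads, a floor of 3 reads was up to 0.0333 FPKM.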
